A study of Mus musculus with 92 samples.

Results

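Microglia taken from mouse brain were compared with macrophages grown from bone marrow (BM) in culture, by bulk RNA sequencing of 7 and 3 libraries. These are 10 of the 92 libraries of the series, and they were chosen by their labels: unmanipulated microglia, replicates 1 to 7, and macrophages differentiated for 7 days in vitro, replicates 1 to 3, called BM-derived (BMD) macrophages here. The microglia came from FVB WT mice that received no injection or transplant, and were sorted by flow cytometry from perfused, homogenised brain after myelin was removed on Percoll. The macrophages were grown from the BM of FVB WT mice in medium with serum and M-CSF, the ligand of CSF1R. No allele or drug separates the groups. The study describes the microglia donors as matched in age to the transplanted hosts, which were injected as newborn pups and collected within weeks as a rule; the age of each mouse is not given in the sources used here, nor that of the marrow donors. The other libraries of the series (ER-Hoxb8 cells, microglia-like cells (MLCs) from transplanted brain, Adar1 knockouts) enter only as points of reference. Microglia were sorted into a lysis reagent and extracted with a micro-scale kit, while macrophages were lysed from the dish and extracted with the standard kit, before all libraries were made with the same low-input kit. Cell type, tissue, sorting, culture and extraction therefore differ together, and their parts in any difference given here cannot be told apart. The study calls the replicates of both groups biological, but neither it nor the labels say whether the macrophage libraries are separate mice or separate dishes, so p-values measure the spread between these libraries, which may be technical.

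Microglia are the resident macrophages of the brain parenchyma. They arise from yolk sac progenitors, persist by local division and depend on CSF1R, for which neurons provide the ligand IL-34. TGF-beta signalling and the transcription factor SALL1 maintain their resting program, of which the ADP receptor P2RY12 and the membrane protein TMEM119 are the usual markers. Macrophages grown from BM in M-CSF arise from definitive haematopoiesis. They proliferate while they differentiate, adhere to plastic, and take up serum lipoproteins, and they never meet the signals of the brain.

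Depth was estimated at 19.3 to 32.8 M counts for the microglia and at 24.6, 43.4 and 25.1 M counts for the macrophages. Over the 12079 genes tested, the median Euclidean distance between a microglia and a macrophage library was 261 log2 units (range 242 to 316, 21 pairs). Within microglia it was 104 (76.2 to 170, 21 pairs), and within macrophages 133 (99.1 to 152, 3 pairs). The groups therefore did not overlap in distance. The corresponding median Spearman correlations across genes, which are not independent replicates, were 0.710 between the groups and 0.948 within microglia. In the same normalization set, microglia lay at a median distance of 181 from BMD MLCs, 247 from ER-Hoxb8 MLCs and 275 from ER-Hoxb8 macrophages. The ER-Hoxb8 MLC libraries were themselves spread, with a median distance of 222 (127 to 238) within the group, against 115 within BMD MLCs. The median distance of microglia from 2 further libraries labelled as unmanipulated microglia, left out of the comparison, was 230 (102 to 335, 14 pairs). These 2 libraries, replicates 8 and 9, lay 346 from each other, so the pooled median describes neither of them. Mitochondrially encoded genes took 4.32% of CPM in replicate 8 and 0.619% in replicate 9. Within the groups, microglia replicates 4 and 5 lay farthest from the other microglia, with median distances of 145 and 125 against 84.2 to 102 for the rest. Macrophage replicate 3 stood apart from the other macrophages in several gene groups described here, and results that rest on it are given without it. Its library is named wBM_1 in the labels, where those of replicates 1 and 2 are named Mac1 and Mac3. All 3 have the same title, and the study's methods describe macrophages grown from isolated BM progenitors, but whether this library was prepared like the others is not given in the sources used here, so the macrophage mean may cover more than 1 preparation.

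Of the 12079 genes, 3112 (25.8%) were differentially expressed genes (DEGs), defined by an adjusted p below 0.05 in limma with Benjamini-Hochberg adjustment and a log2 fold change (log2FC, microglia minus BMD macrophages) of at least 2 in either direction. Of these, 1558 (12.9%) were higher and 1554 (12.9%) lower in microglia. The split depended on the processing, with 897 higher and 1286 lower with a pseudocount of 1, 922 and 1174 at a mean CPM above 5, and 1773 and 1402 with median centring. The median log2FC over all genes tested was -0.0019. Groups did not overlap, meaning that every microglia library lay on the same side of every macrophage library, for 46.1% of genes, 21.8% with microglia above and 24.3% with microglia below. Differences were large at the extremes: 172 genes had a log2FC of 6 or more and 119 of -6 or less. These shares are the background against which each gene group is read. In bulk samples, fewer cells of a type and less RNA per cell cannot be told apart. Levels are given as the deposited log2 CPM (counts scaled to library size and TMM-normalized), and log2FC is given ± SE. The lowest value of the normalization set of these libraries is -3.62, which stands for no counts. The plot of group means shows every tested gene.

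**Figure D1:**
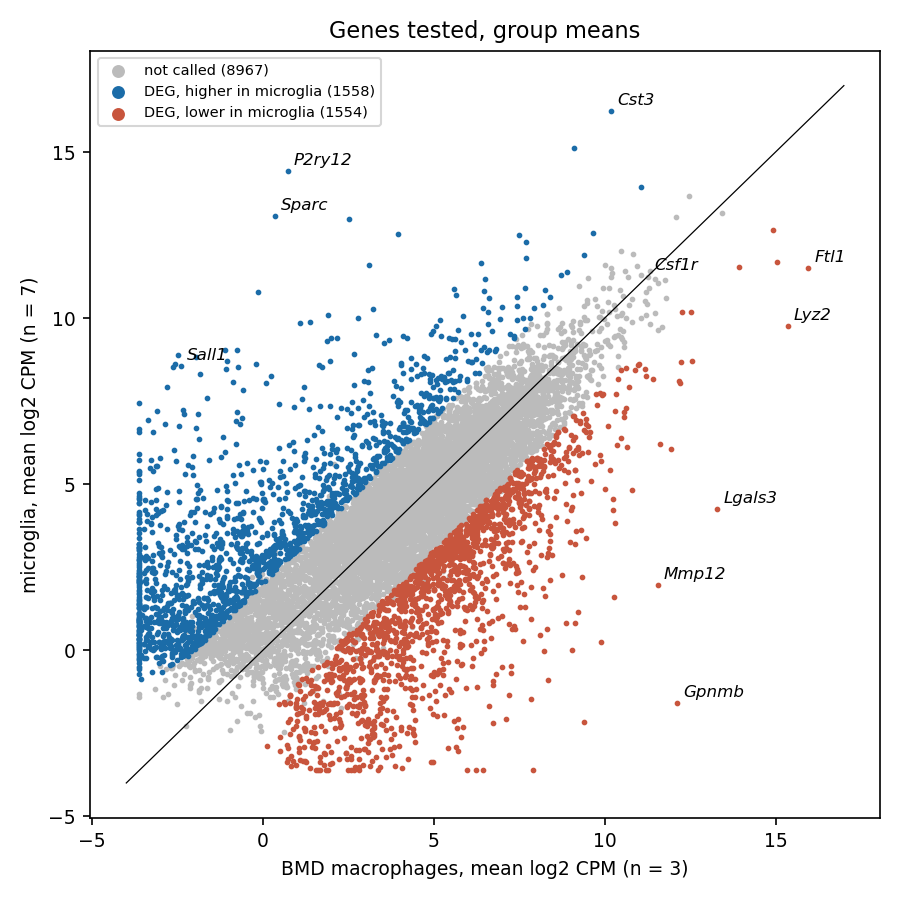
Mean log2 CPM of each of the 12079 tested genes in BMD macrophages (x axis, n = 3) against microglia (y axis, n = 7), with DEGs coloured by direction and selected genes named. The 1558 higher and 1554 lower DEGs lie on both sides of the diagonal, and P2ry12 and Gpnmb are at its opposite extremes.

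Homeostatic microglia genes made up the group with the largest share of higher DEGs among the lists with more than 10 tested members. Of 30 genes, 28 were higher in microglia, none was lower, and the median log2FC was 6.03. P2ry12, the ADP receptor that directs process movement to injury, was at 14.15 to 14.84 (median 14.41) in microglia and at 0.45, -1.60 and 3.31 in the 3 macrophage libraries. Its log2FC was 13.70 ± 0.73 (95% CI 12.11 to 15.29, adjusted p = 4.5e-08), the largest positive value of all genes tested. The groups were far apart, although macrophage replicate 3 had more P2ry12 than the other macrophages. Sparc, a secreted matrix-binding glycoprotein, was at 12.71 to 13.53 (median 13.02) against 0.075, -0.38 and 1.35 (log2FC 12.71 ± 0.33, adjusted p = 1.9e-10). Sall1, the zinc finger repressor that defines microglial identity, was at 8.31 to 8.74 (median 8.60) against -2.97, -2.50 and -1.75, and no macrophage library exceeded -1.75. Its log2FC was 10.96 ± 0.25 (adjusted p = 9.44e-11). Siglech, a sialic acid-binding lectin, had a log2FC of 10.92 ± 0.43. Gpr34, a receptor for lysophosphatidylserine, had one of 10.46 ± 0.48, and P2ry13, another ADP receptor, one of 8.57 ± 0.36. All 7 microglia libraries were above all 3 macrophage libraries for each of these genes.

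The promoter of P2ry12 is shown because this gene had the largest difference. The 250 bases before its start were taken from the RefSeq promoter table (GRCm38.p6, C57BL/6J reference, while the mice were FVB), at chr3:59262986-59263235 on the minus strand, written 5′ to 3′ with the E-box CACGTG in capitals.
P2ry12: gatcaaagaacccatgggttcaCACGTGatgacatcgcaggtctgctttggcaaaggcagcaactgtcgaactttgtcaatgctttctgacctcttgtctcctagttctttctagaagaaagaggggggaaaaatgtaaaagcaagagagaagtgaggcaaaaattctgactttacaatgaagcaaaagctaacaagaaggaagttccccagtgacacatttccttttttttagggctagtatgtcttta
The first base of the E-box is at position -228 relative to the start. CACGTG, which reads the same on both strands, was in 9.99% of the promoters of tested genes, in 9.34% of those of higher DEGs and in 10.3% of those of lower DEGs. Among the homeostatic genes it was in 2 of 20, P2ry12 and Siglech.

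Within the homeostatic list, genes differed in how far macrophages were from zero. Cst3, a secreted inhibitor of cysteine cathepsins, was at 15.74 to 16.60 (median 16.27) in microglia and at 10.19, 10.29 and 10.06 in macrophages (log2FC 6.05 ± 0.33, adjusted p = 5.97e-08). It was thus well detected in both cell types, and the groups still did not overlap. Slc2a5, the fructose transporter, was at 7.39 to 9.94 (median 9.18) in microglia, and macrophage replicates 1 and 2 had no counts of it while replicate 3 was at -0.23. Tmem119 spanned a wide range in microglia, 9.51 to 13.06 (median 12.10), with macrophages at 3.32, 0.91 and 5.04 (log2FC 8.51 ± 0.94, adjusted p = 1.77e-05). Microglia replicates 4 and 5 held its lowest levels, 9.52 and 9.51. The same 2 libraries were at 7.51 and 7.39 for Slc2a5, also the lowest of the 7.

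Cx3cr1, Csf1r and Trem2 are receptors that the macrophages also expressed. Cx3cr1, the receptor for the neuronal chemokine fractalkine, was at 10.68 to 13.28 (median 12.77) in microglia and at 9.66, 2.97 and 10.43 in macrophages, so that only macrophage replicate 2 was low. Its log2FC was 4.62 ± 1.28 (adjusted p = 0.00988). It was 2.26 (adjusted p = 0.017) without macrophage replicate 2 and 4.07 (adjusted p = 0.0617) with microglia replicates 4 to 7 only. Csf1r, the receptor for M-CSF and IL-34, was at 10.09 to 11.997 (median 11.57) against 11.39, 10.69 and 11.73, with a log2FC of -0.022 (95% CI -1.01 to 0.97, adjusted p = 0.971). Trem2, a lipid-sensing receptor of phagocytes, was at 10.84 to 12.001 (median 11.12) against 11.02, 10.71 and 10.29 (log2FC 0.56, 95% CI -0.066 to 1.18, adjusted p = 0.117). These 2 were the members of the list that were not DEGs.

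**Figure D2:**
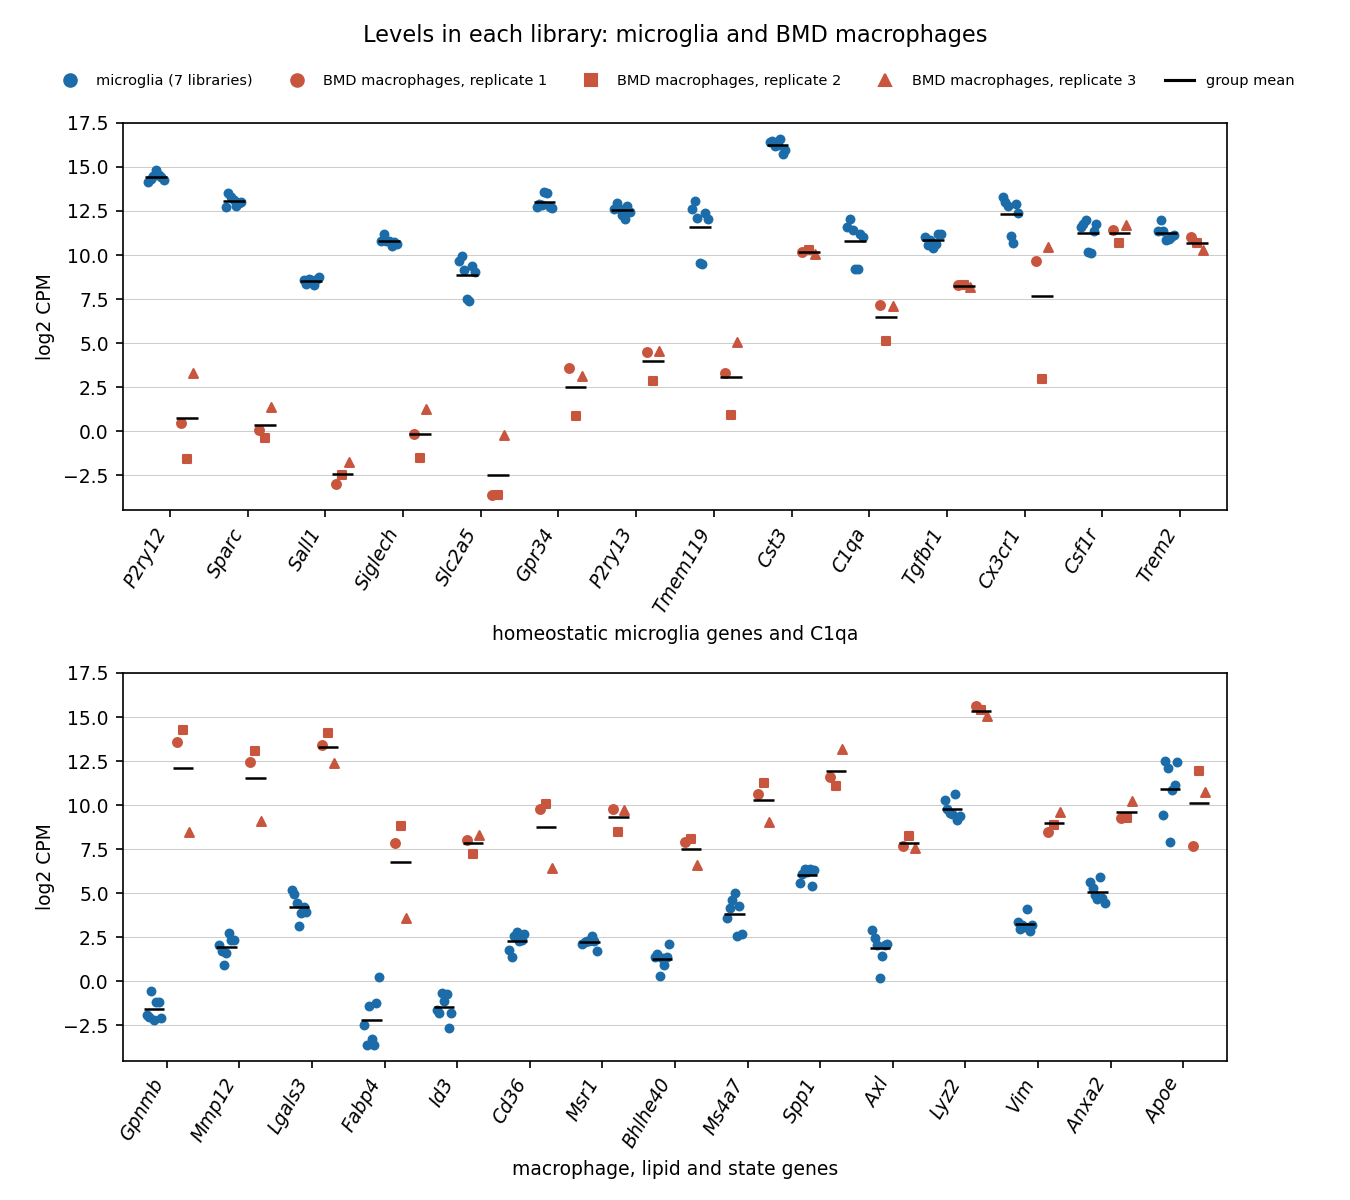
Log2 CPM of homeostatic microglia genes with C1qa and of 15 genes of macrophages, lipid handling and activated states in each library, with 1 point per library for the 7 microglia and the 3 BMD macrophage libraries. The P2ry12 points sit between 14.15 and 14.84 in microglia and at 0.45, -1.60 and 3.31 in macrophages, and the order of the groups turns round for Gpnmb.

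Transcription factors fell into both directions, with 6 of 28 tested factors higher, 6 lower and a median log2FC of 0.47. Besides Sall1, its relative Sall3 was at 5.80 to 6.96 (median 6.61) in microglia and at -3.62, -3.62 and -2.42 in macrophages. These macrophage values are at most 3 counts in every library, so only a bound can be given, and Sall3 was at least 791-fold higher in microglia (adjusted p = 1.35e-09). Mef2c, a MADS-box factor that restrains microglial inflammation, was higher by 4.80 ± 0.69, and Batf3, a partner of IRF8 in dendritic cells, by 5.06 ± 0.46. On the other side, Id3, an inhibitor of basic helix-loop-helix factors, was at -2.65 to -0.66 (median -1.64) in microglia and at 8.04, 7.20 and 8.28 in macrophages (log2FC -9.32 ± 0.47, adjusted p = 3.11e-08). Bhlhe40, which represses in response to stress and cytokines, had a log2FC of -6.24 ± 0.41. Nr1h3, the oxysterol receptor LXR-alpha, had a log2FC of -5.78 ± 0.90, and Pparg, a fatty acid-sensing receptor, one of -4.22 ± 0.82. Factors that all macrophages use differed less. The log2FC of Spi1, which encodes PU.1, was 1.12 ± 0.37, that of Irf8 1.22 ± 0.47, that of Runx1 0.66 ± 0.33 and that of Zeb2 -0.35 ± 0.16, and none of these passed both limits of a DEG.

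Genes of the TGF-beta pathway were higher or not called. Of 23 tested members, 6 were higher in microglia, none was lower, and the median log2FC was 1.44. Tgfbr1, the type I receptor, was at 10.43 to 11.21 (median 10.87) against 8.27, 8.32 and 8.19 (log2FC 2.59 ± 0.23, adjusted p = 2.87e-06). Tgfbr2, the type II receptor, was at 7.14 to 7.89 (median 7.60) against 7.73, 7.83 and 8.69, with a log2FC of -0.60 (adjusted p = 0.0659). The receptors thus stood on different sides of 0, and the second was not a DEG. Bmpr1a, a BMP receptor, was at 4.22 to 5.33 (median 4.76) against -1.34, -1.30 and -1.41 (log2FC 6.17 ± 0.28). Among the signal transducers and feedback inhibitors, Smad3 had a log2FC of 3.48 ± 0.65, the inhibitory Smad7 one of 3.80 ± 0.27 (adjusted p = 4.88e-07), and Pmepa1, which sequesters SMADs, one of 5.05 ± 0.72. The ligand Tgfb1 was low in both groups, at -1.32 to 0.94 (median -0.36) and -0.94, 0.72 and 0.52.

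Receptors for nucleotides and lipid mediators were split, with 8 of 21 tested genes higher and 8 lower (median log2FC 0.19). Beside P2ry12, P2ry13 and Gpr34, the higher genes included P2rx1, an ATP-gated channel, at 4.20 to 5.58 (median 4.61) against -1.46, -1.85 and -2.41 (log2FC 6.64 ± 0.35). Adora3, an adenosine receptor, had a log2FC of 6.73 ± 0.44, and Gpr183, an oxysterol receptor that guides migration, one of 3.38 ± 0.62, which was 2.20 without macrophage replicate 2. Entpd1, the ectonucleotidase CD39, was at 9.43 to 10.80 (median 10.59) against 7.33, 8.65 and 3.32 (log2FC 3.87 ± 0.86, and 2.31 without macrophage replicate 3). Lower genes included P2ry2, a receptor for ATP and UTP, at -3.62 to -1.04 (median -2.05) against 3.18, 5.30 and 4.72 (log2FC -6.77 ± 0.75, adjusted p = 1.85e-05). P2ry1, an ADP receptor of another coupling class, had a log2FC of -3.68 ± 0.71, and S1pr1, a sphingosine 1-phosphate receptor, one of -4.03 ± 0.35. P2ry6, the UDP receptor linked to phagocytosis, was at 6.86 to 8.80 (median 8.30) against 7.76, 7.50 and 8.16, which overlapped (log2FC 0.19, adjusted p = 0.728).

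Ion channels showed 3 of 18 tested genes higher and 5 lower, of which 3 were lower without macrophage replicate 2 or without microglia replicates 4 and 5. The shares over all tested genes were 12.9% higher and 12.9% lower, so the count of higher channels is near the background. Trpv4, an osmosensitive and heat-sensitive cation channel, was at -1.54 to -0.71 (median -1.22) in microglia against 5.04, 6.04 and 5.40 (log2FC -6.74 ± 0.36, adjusted p = 4.49e-08). Lrrc8a, the essential subunit of the volume-regulated anion channel, was at 7.62 to 8.92 (median 8.06) against 4.77, 5.14 and 6.21 (log2FC 2.72 ± 0.37). Kcnk6, a leak potassium channel, had a log2FC of 2.72 ± 0.24, and Kcnk13, its relative that sets the resting potential of microglia, one of 1.55 ± 0.38, below the limit of 2.

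Complement genes were 5 of 19 higher and 6 lower. C1qa and C1qb, subunits of the recognition molecule of the classical pathway, were at 9.19 to 12.04 (median 11.18) and 10.84 to 12.68 (median 11.98) in microglia. In macrophages C1qa was at 7.16, 5.14 and 7.08 and C1qb at 8.46, 7.30 and 7.30, giving log2FCs of 4.35 ± 0.67 and 4.12 ± 0.42. The third subunit gene, C1qc, was at 7.20 to 11.85 (median 10.93) against 8.31, 8.52 and 7.79, with the groups overlapping. Its log2FC was 2.20 ± 0.79 (adjusted p = 0.0331), and the call was lost (adjusted p = 0.0519 to 0.11) when any 1 of the 3 macrophage libraries or of microglia replicates 1, 2, 3, 6 and 7 was left out, and with microglia replicates 4 to 7 only (adjusted p = 0.164). Cfp, which encodes properdin, the activator of the alternative pathway, was at 2.82 to 4.38 (median 3.88) against 9.49, 8.60 and 9.80 (log2FC -5.67 ± 0.39, adjusted p = 3.35e-07). The receptors for the anaphylatoxins were both lower in microglia, C3ar1 by a log2FC of -3.09 ± 0.24 and C5ar1 by one of -4.11 ± 0.31. C5ar2, the second C5a receptor, was higher by 3.24 ± 0.49. C3 itself was at 1.75 to 4.55 (median 3.10) against 2.38, 3.44 and 2.38 (log2FC 0.35, adjusted p = 0.602).

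Adhesion genes were 7 of 22 higher and 6 lower (median log2FC 1.01). Jam2, a junctional adhesion molecule, was at 7.46 to 7.83 (median 7.57) against -2.08, -1.25 and -1.55 (log2FC 9.23 ± 0.21, adjusted p = 9.44e-11). F11r, another of that family, had a log2FC of 6.18 ± 0.74, and Selplg, the P-selectin ligand, one of 5.00 ± 0.48. The integrins were split. Itga9 and Itgb3, the alpha 9 and beta 3 chains, were higher by 2.41 ± 0.48 and 2.11 ± 0.35, though the log2FC of Itga9 was 1.59 without macrophage replicate 3 and that of Itgb3 1.72 without replicate 1 and 1.89 with microglia replicates 4 to 7 only, all below the limit. Several leukocyte chains were lower. Itgal, the alpha chain of LFA-1, was at 1.78 to 3.11 (median 2.77) against 8.03, 6.43 and 7.45 (log2FC -4.69 ± 0.38). Itga5, the fibronectin receptor, had a log2FC of -5.96 ± 0.59, Itga4, an alpha chain of VLA-4, one of -3.18 ± 0.37, and Itgb2, the shared beta chain, one of -2.39 ± 0.40, which was -1.97 without microglia replicates 4 and 5, just short of the limit. Itgam, which encodes CD11b, was at 9.30 to 9.82 (median 9.58) against 8.42, 6.69 and 9.76, and macrophage replicate 3 was within the range of the microglia. Its log2FC was 1.30 ± 0.47, and it was 2.03 (adjusted p = 0.00114) without that library. Cd44, the hyaluronan receptor, was at 3.67 to 5.25 (median 4.13) against 8.98, 8.93 and 9.15 (log2FC -4.81 ± 0.31, adjusted p = 2.11e-07).

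Genes that mark marrow-derived macrophages were mostly lower in microglia: 21 of 27 tested members were lower, 4 were higher, and the median log2FC was -3.92. Gpnmb, a transmembrane glycoprotein of lysosomes, was at -2.22 to -0.53 (median -1.93) in microglia and at 13.59, 14.29 and 8.48 in macrophages. Its log2FC of -13.71 ± 0.98 (95% CI -15.86 to -11.56, adjusted p = 5.19e-07) was the largest negative value of all genes tested, although macrophage replicate 3 was well below the other macrophages. Lgals3, a galactose-binding lectin, was at 3.13 to 5.20 (median 4.20) against 13.39, 14.09 and 12.41 (log2FC -9.06 ± 0.45, adjusted p = 2.3e-08). Ms4a7, a tetraspan protein of marrow-derived brain macrophages, was at 2.54 to 5.00 (median 4.15) against 10.64, 11.23 and 9.04 (log2FC -6.47 ± 0.59, adjusted p = 3.55e-06). All 3 genes separated the groups without overlap. Vim, the intermediate filament vimentin, had a log2FC of -5.73 ± 0.31, Lyz2, which encodes lysozyme M, one of -5.60 ± 0.33, and Spp1, the secreted phosphoprotein osteopontin, one of -5.89 ± 0.40. The 4 members that were higher in microglia were Ccr2, Ly6c2, Plac8 and Chil3, which are genes of monocytes and granulocyte precursors. Chil3 was at 6.45 to 8.57 (median 7.41) against 2.27, 1.52 and -1.10 (log2FC 6.43 ± 0.65), and Plac8 at 3.85 to 5.03 (median 4.56) against 0.21, -0.049 and -1.38 (log2FC 4.93 ± 0.38). Neutrophil markers, given with the other cell types, were higher in the same microglia libraries, and their part in this was not tested.

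Ms4a7 is shown as a member of the marrow-derived list that, like Mrc1, also marks brain border macrophages, with the motif TGANTCA of AP-1 in capitals. The 250 bases before the second of its RefSeq starts lie at chr19:11334696-11334945 on the minus strand (GRCm38.p6). Those before the first start hold no AP-1 motif.
Ms4a7: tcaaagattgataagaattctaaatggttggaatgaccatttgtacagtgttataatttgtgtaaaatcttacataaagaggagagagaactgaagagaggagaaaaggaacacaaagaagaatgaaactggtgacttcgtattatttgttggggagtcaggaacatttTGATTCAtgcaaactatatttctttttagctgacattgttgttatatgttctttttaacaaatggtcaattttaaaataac
The first base of the AP-1 motif is at position -81 relative to this start. TGANTCA, which reads the same on both strands, was in 5.47% of the promoters of tested genes, in 5.91% of those of higher DEGs and in 8.62% of those of lower DEGs. In the marrow-derived list it was in 6 of 25 promoters (24.0%), those of Ms4a7, Clec12a, S100a11, Anxa2, Ifitm3 and Cybb, and in the homeostatic list in 1 of 20, that of Trem2. These shares are descriptions of the sequences, and binding was not measured.

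Hox genes are active in haematopoietic progenitors of the marrow. Of 18 genes of that list, which also holds genes other than Hox genes, 3 passed the filter on low values, and 1, Meis1, was a DEG. Meis1 was at 3.00 to 3.69 (median 3.33) in microglia and at 1.50, 0.74 and 1.59 in macrophages (log2FC 2.09 ± 0.29, adjusted p = 9.77e-05). Without macrophage replicate 2 its log2FC was 1.82, below the limit. Hoxb4, the one Hox gene that passed the filter, was at -0.56 to 1.72 (median 0.096) in microglia and at -1.31, -0.92 and -2.24 in macrophages, with no overlap (log2FC 1.81 ± 0.58, adjusted p = 0.0207), below the limit of 2. Without macrophage replicate 2 its log2FC was 2.09, which passed the limit (adjusted p = 0.0255), and without replicate 3 its adjusted p was 0.0942. With microglia replicates 4 to 7 only, the log2FC of Hoxb4 was 2.08 (adjusted p = 0.0368), which also passed the limit. Hoxa9 and Hoxb8 had no counts in any of the 10 libraries.

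Genes that activated, disease-associated microglia are known to induce were mostly lower in the unmanipulated microglia than in macrophages: 13 of 24 were lower, 3 were higher, and the median log2FC was -2.51. Axl, a receptor for bridging molecules on dying cells, was at 0.18 to 2.93 (median 2.08) against 7.68, 8.25 and 7.58 (log2FC -5.94 ± 0.49, adjusted p = 1.62e-06). Igf1, a trophic factor, was at 1.85 to 2.89 (median 2.40) against 7.71, 7.61 and 7.08 (log2FC -5.12 ± 0.29), and Lpl, which hydrolyses lipoprotein triglyceride, was at 4.65 to 5.05 (median 4.86) against 10.89, 9.92 and 9.23 (log2FC -5.17 ± 0.29). Axl and Igf1 were even among the macrophages, and all 3 genes were apart from the microglia. Itgax and Clec7a, a complement receptor chain and a beta-glucan receptor, were highest in macrophage replicates 1 and 2. Itgax was at 7.68, 7.46 and 2.92 in macrophages and at 0.49 to 2.66 (median 2.16) in microglia (log2FC -4.02 ± 0.86). Clec7a was at 7.55, 7.63 and 3.39 and 2.61 to 3.96 (median 3.19) (log2FC -2.94 ± 0.74). Apoe, the main apolipoprotein of the brain, ranged widely in both groups, at 7.92 to 12.51 (median 11.15) in microglia and 7.69, 11.95 and 10.73 in macrophages (log2FC 0.79, adjusted p = 0.552). Tyrobp, the signalling adaptor of TREM2, was at 7.95 to 9.41 (median 8.30) against 5.92, 2.84 and -3.57, with almost no counts in macrophage replicate 3. The level of this adaptor in the macrophages was thus set apart by library, and its log2FC was 4.16 (adjusted p = 0.000482) without replicate 3, against 6.81 ± 1.41 with it.

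Scavenger and phagocytic receptors were 12 of 25 lower and 4 higher (median log2FC -1.85). Msr1, the class A scavenger receptor for modified lipoprotein, was at 1.71 to 2.57 (median 2.27) against 9.77, 8.48 and 9.72 (log2FC -7.11 ± 0.30, adjusted p = 7.22e-09). Clec4d, a C-type lectin for mycobacterial glycolipid, was at -1.08 to 0.79 (median 0.22) against 7.70, 8.31 and 8.63 (log2FC -8.23 ± 0.48, adjusted p = 1.02e-07). Cd36, a fatty acid and lipoprotein receptor, was at 1.39 to 2.79 (median 2.37) against 9.78, 10.05 and 6.41 (log2FC -6.48 ± 0.65). All 3 receptors were lower in every microglia library than in every macrophage library. The higher members included Pros1, the bridging molecule protein S, at 10.36 to 10.84 (median 10.67) against 6.49, 6.48 and 6.90 (log2FC 3.99 ± 0.19, adjusted p = 2.04e-08). Mertk, its receptor, was at 7.84 to 8.29 (median 8.25) against 5.96, 6.48 and 5.49 (log2FC 2.18 ± 0.22), and its log2FC was 1.94 without macrophage replicate 3, below the limit. The TAM receptors Axl and Mertk therefore had log2FCs of opposite sign.

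Of 10 Fc receptor genes, 2 were higher and none was lower (1 without macrophage replicate 3). Fcgr1, the high-affinity IgG receptor, was at 7.77 to 8.87 (median 8.24) against 5.19, 2.39 and 5.93 (log2FC 3.75 ± 0.58), and Fcrls, an Fc receptor-like scavenger molecule, had a log2FC of 3.25 ± 0.56. Of the Toll-like receptors and adaptors, 3 of 18 were higher and 1 was lower. Over all tested genes 12.9% were higher and 12.9% lower, so the counts of both receptor lists are near the background. Tlr3, a sensor of double-stranded RNA, had a log2FC of 3.73 ± 0.54, Tlr5, the flagellin receptor, one of 4.97 ± 0.76, and Tlr12, a profilin receptor of rodents, one of 5.41 ± 0.81. Tlr8, an endosomal RNA sensor, was at 0.27 to 2.01 (median 1.01) against 6.66, 5.99 and 6.17 (log2FC -5.33 ± 0.40, adjusted p = 8.2e-07), while Tlr7, another RNA sensor, was at 7.77 to 8.40 (median 8.26) against 7.33, 7.68 and 7.76 (log2FC 0.59 ± 0.19). Among the colony-stimulating factor genes, 2 of 8 were higher (1 without macrophage replicate 3 or with microglia replicates 4 to 7 only) and 2 lower. Csf2rb2, the IL-3-specific beta chain, was at 2.62 to 3.62 (median 3.47) against 6.33, 5.98 and 6.15 (log2FC -2.93 ± 0.27), and Flt3 was at 1.57 to 2.64 (median 2.08) against -1.34, -1.76 and -2.28 (log2FC 3.91 ± 0.38).

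Cytokine and growth factor genes were 5 of 17 higher and 3 lower. Il1a was at 4.75 to 6.18 (median 5.73) in microglia and at 0.25, 3.31 and -0.73 in macrophages (log2FC 4.65 ± 0.68), and Il1b at 0.27 to 1.36 (median 1.06) against -1.95, -3.62 and -3.62 (log2FC 3.96 ± 0.49). The antagonist of both, Il1rn, was at 1.73 to 4.27 (median 2.38) against 6.11, 6.90 and 5.05 (log2FC -3.30 ± 0.55). The agonists and the antagonist thus had opposite signs. Tnf was at -0.95 to 1.17 (median 0.85) against 3.87, 2.15 and 5.18 (log2FC -3.45 ± 0.70). Of 19 chemokines and receptors, 8 were higher and 7 lower. Ccr1, a receptor for CCL3, was at 8.23 to 9.22 (median 8.63) against 4.75, 5.57 and 3.14 (log2FC 4.14 ± 0.41, adjusted p = 6.9e-06). The chemokines Ccl3 and Ccl4 were lower in microglia, at log2FCs of -2.43 ± 0.33 and -3.04 ± 0.43. Cxcr4, the receptor that holds cells in the marrow, was at 0.26 to 0.96 (median 0.66) against 3.84, 5.76 and 5.18 (log2FC -4.23 ± 0.40, adjusted p = 4.86e-06).

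Antigen presentation genes of MHC class II were 3 of 9 higher and none lower. H2-Oa and H2-Ob, the chains of the DO molecule that restrains peptide loading, were at 4.61 to 5.57 (median 5.16) and 5.54 to 6.87 (median 6.29) in microglia. In macrophages H2-Oa was at 0.44, -0.23 and 0.35 and H2-Ob at 0.77, -0.44 and 2.32, giving log2FCs of 4.95 ± 0.29 and 5.38 ± 0.50. Cd74, the invariant chain, was at 8.42 to 9.09 (median 8.71) against 7.03, 7.55 and 6.14 (log2FC 1.77 ± 0.28), short of the limit, and 2.09 (adjusted p = 0.000158) without macrophage replicate 2. Interferon-stimulated genes were 5 of 24 lower and 1 higher (none without macrophage replicate 2, 2 without replicate 3). The lower genes were the antiviral synthetases Oas1a, Oas2 and Oas3 with log2FCs of -4.76 ± 0.41, -4.33 ± 0.57 and -5.83 ± 0.42, and the factors Irf7 (-2.83 ± 0.62) and Stat2 (-2.39 ± 0.26). Isg15, a ubiquitin-like protein of that response, was at 1.63 to 3.07 (median 2.60) against 2.49, 2.03 and 3.34, which overlapped.

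Immediate early genes, which can be induced while a tissue is dissociated, were 7 of 24 lower in microglia and 4 higher (2 without macrophage replicate 3). Fos was at 1.32 to 3.61 (median 2.16) against 6.71, 4.88 and 6.32 (log2FC -3.57 ± 0.54, adjusted p = 0.000184), and Atf3, a stress-induced factor, at 2.00 to 4.09 (median 3.36) against 7.28, 8.19 and 7.26 (log2FC -4.29 ± 0.41). Jun was at 2.98 to 6.16 (median 3.28) against 3.13, 4.17 and 3.57 (log2FC 0.032, adjusted p = 0.969), and Egr1 at 0.26 to 2.56 (median 1.18) against 2.77, 1.95 and -1.36 (log2FC 0.059). None of these 4 genes was a DEG higher in the sorted cells. Rhob, a small GTPase, was at 8.28 to 8.81 (median 8.61) against 4.28, 5.00 and 2.85 (log2FC 4.55 ± 0.35), and Socs3, the feedback inhibitor of cytokine receptors, was higher by 3.04 ± 0.43.

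Cell cycle genes were lower in microglia or not called. Of 24 genes of mitosis and G2/M, 19 were lower and none was higher, with a median log2FC of -3.01. The count rested on macrophage replicate 3, without which 9 were lower. Mki67, the proliferation marker Ki-67, was at 1.61 to 3.81 (median 2.21) in microglia and at 5.58, 3.79 and 7.20 in macrophages (log2FC -2.94 ± 0.66, adjusted p = 0.00281). Aurkb, the kinase of the chromosomal passenger complex, was at -0.17 to 2.29 (median 1.21) against 4.81, 3.27 and 7.02 (log2FC -3.95 ± 0.70), and Kif23, a motor of cytokinesis, at -2.41 to 0.14 (median -1.22) against 3.20, 3.37 and 6.51 (log2FC -5.56 ± 0.78). For each of these genes macrophage replicate 3 was the highest library. Microglia stayed below all macrophages for Aurkb and Kif23, while for Mki67 microglia replicate 5, at 3.81, reached macrophage replicate 2. Top2a, the topoisomerase of dividing cells, was at 2.67 to 5.18 (median 3.26) against 5.77, 4.44 and 8.54, where microglia and macrophage replicate 2 overlapped. Its log2FC was -2.69 ± 0.78 (adjusted p = 0.0127), -1.54 (adjusted p = 0.0794) without macrophage replicate 3 and -2.39 (adjusted p = 0.0689) with microglia replicates 4 to 7 only. Cdk1, the kinase that drives entry into mitosis, had a log2FC of -2.31 ± 0.49 and of -1.62 without macrophage replicate 3.

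Of 24 genes of DNA replication, 15 were lower and none was higher (median log2FC -2.25). Mcm2, a subunit of the replicative helicase, was at 1.51 to 3.91 (median 2.69) against 7.70, 5.42 and 7.99 (log2FC -4.42 ± 0.62, adjusted p = 0.000104). Rrm2, the regulated subunit of ribonucleotide reductase, was at 2.17 to 4.10 (median 2.60) against 7.04, 4.95 and 9.21 (log2FC -4.08 ± 0.73), and Uhrf1, which maintains DNA methylation at the fork, at 1.11 to 2.49 (median 1.54) against 7.02, 3.51 and 8.02 (log2FC -4.47 ± 0.75). Macrophage replicate 2 was the lowest of the 3 macrophage libraries for each of them. Tyms, thymidylate synthase, was at 4.91 to 6.21 (median 5.22) against 6.47, 3.97 and 7.24, which overlapped (log2FC -0.49, adjusted p = 0.478).

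The promoters of 3 mitotic genes are shown because 2 motifs, which the selection of the list did not use, were more frequent in it than over all genes. All 3 promoters hold both motifs, while the CHR was in only 8 of 19 promoters of the list. The motifs in capitals are the cell cycle homology region (CHR) TTTGAA and the CCAAT box, each searched on both strands (TTCAAA and ATTGG on the other), and none of the marked motifs overlap. The sequences are the 250 bases before the start, 5′ to 3′, all on the minus strand of GRCm38.p6: Mki67 at chr7:135716380-135716629, Top2a at chr11:99024190-99024439 and Cdk1 at chr10:69352913-69353162.
Mki67: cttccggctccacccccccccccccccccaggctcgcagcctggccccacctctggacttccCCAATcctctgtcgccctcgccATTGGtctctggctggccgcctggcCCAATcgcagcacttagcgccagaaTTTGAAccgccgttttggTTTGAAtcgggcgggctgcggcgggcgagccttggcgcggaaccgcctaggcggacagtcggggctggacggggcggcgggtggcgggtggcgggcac
Top2a: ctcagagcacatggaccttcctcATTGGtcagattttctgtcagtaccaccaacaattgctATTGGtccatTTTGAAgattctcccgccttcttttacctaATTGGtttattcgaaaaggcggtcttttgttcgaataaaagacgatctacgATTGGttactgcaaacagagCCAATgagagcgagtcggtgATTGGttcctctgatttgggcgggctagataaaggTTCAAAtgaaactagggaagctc
Cdk1: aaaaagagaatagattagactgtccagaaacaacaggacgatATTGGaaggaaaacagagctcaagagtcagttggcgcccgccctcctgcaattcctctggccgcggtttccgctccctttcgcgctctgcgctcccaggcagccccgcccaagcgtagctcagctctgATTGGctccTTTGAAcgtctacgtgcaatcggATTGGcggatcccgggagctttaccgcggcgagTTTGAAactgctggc
CCAAT was in 17 of 19 mitotic promoters (89.5%), against 40.7% of the promoters of all tested genes. It was also in 15 of 18 promoters of sterol and fatty acid synthesis (83.3%), 13 of 20 of DNA replication (65.0%) and 11 of 18 of the glutathione, NRF2 and iron list (61.1%). The CHR was in 8 of 19 mitotic promoters (42.1%), against 13.1% of all, and in 7 of 25 of the marrow-derived list (28.0%). Over all lower DEGs the shares were 41.9% for CCAAT and 13.4% for the CHR, and over all higher DEGs 38.9% and 14.7%. A match describes the sequence only.

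**Figure D3:**
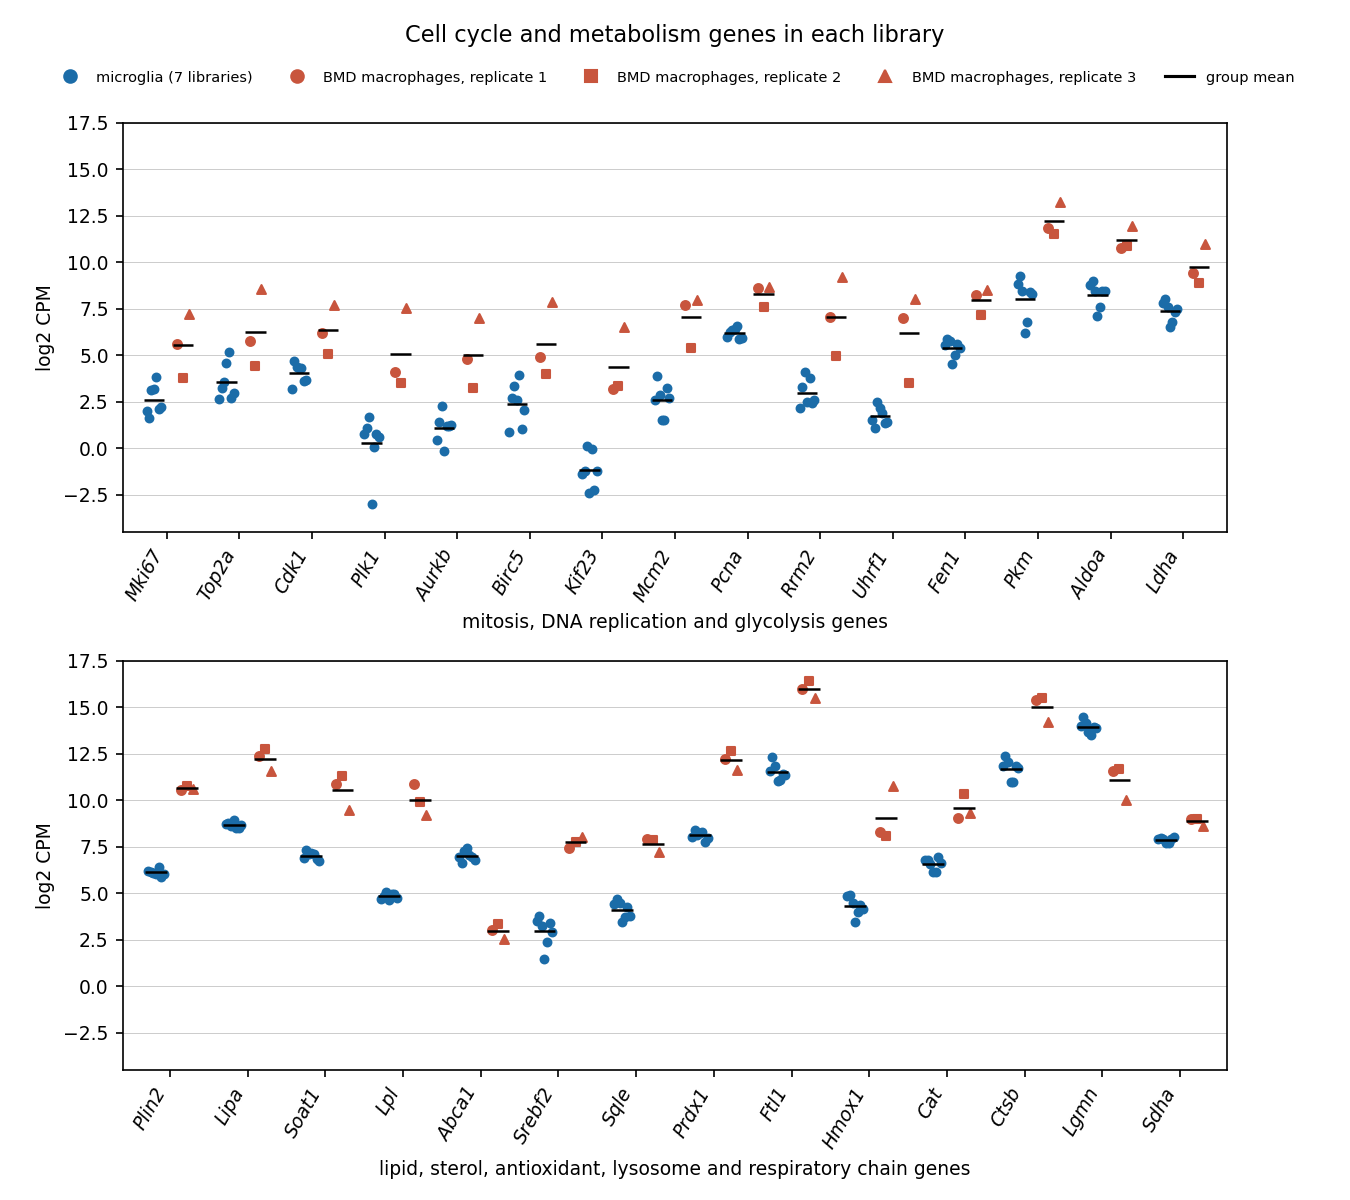
Log2 CPM of cell cycle, lysosome, lipid and glycolysis genes in each library, with 1 point for each of the 7 microglia and 3 BMD macrophage libraries. Mki67 sits at 1.61 to 3.81 in microglia and at 5.58, 3.79 and 7.20 in macrophages, where replicate 3 is the highest.

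Lysosomal genes were 12 of 35 lower and 3 higher in microglia, with 20 not called and a median log2FC of -0.90. Ctsb, cathepsin B, was at 10.99 to 12.36 (median 11.82) against 15.38, 15.52 and 14.19 (log2FC -3.34 ± 0.40, adjusted p = 3.24e-05), and Lipa, the acid lipase of lysosomes, at 8.49 to 8.94 (median 8.64) against 12.39, 12.74 and 11.60 (log2FC -3.56 ± 0.24, adjusted p = 3.43e-07). The higher members included Lgmn and Ctsf. Lgmn, the asparagine-specific protease legumain, was at 13.51 to 14.46 (median 13.92) against 11.56, 11.67 and 10.00 (log2FC 2.87 ± 0.39), and Ctsf, cathepsin F, at 5.37 to 8.62 (median 7.56) against 1.70, 2.96 and 3.05 (log2FC 4.56 ± 0.65). Lamp2, a membrane protein of every lysosome, was at 9.89 to 10.26 (median 10.06) against 10.44, 10.32 and 10.31 (log2FC -0.30, 95% CI -0.68 to 0.091). Macrophage and microglial lysosomal genes thus differed by enzyme. The E-box CACGTG was in 9 of 27 promoters of the list (33.3%), against 9.99% of all tested genes.

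Genes shared with osteoclasts were 6 of 15 lower and 2 higher (1 without macrophage replicate 1 or with microglia replicates 4 to 7 only). Atp6v0d2, a subunit of the proton pump of osteoclasts and macrophages, was at -3.62 to 0.56 (median -2.53) against 9.18, 9.47 and 2.70 (log2FC -9.20 ± 1.33, adjusted p = 0.000138). Acp5, tartrate-resistant acid phosphatase, was at 0.052 to 2.50 (median 1.43) against 5.79, 5.81 and 4.72 (log2FC -4.06 ± 0.50), and Ctsk, the collagenolytic cathepsin K, at -3.62 to 0.45 (median -2.84) against 3.47, 4.65 and 0.21 (log2FC -4.96 ± 1.05). Macrophage replicate 3 was the lowest macrophage library for all 3 genes, and for Ctsk it lay within the range of the microglia. Mitf, a transcription factor of osteoclasts and pigment cells, was at 3.78 to 4.64 (median 4.46) against 6.39, 6.80 and 5.40 (log2FC -1.80 ± 0.30), and its log2FC was -2.20 (adjusted p = 7.05e-05) without that library.

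Genes that take up, store or export lipid were 14 of 24 lower and 4 higher, with a median log2FC of -2.99. Plin2, which coats lipid droplets, was at 5.89 to 6.43 (median 6.07) in microglia and at 10.55, 10.74 and 10.63 in macrophages (log2FC -4.53 ± 0.17, adjusted p = 2.36e-09). Soat1, which esterifies cholesterol for storage, was at 6.72 to 7.31 (median 7.10) against 10.86, 11.32 and 9.49 (log2FC -3.54 ± 0.32). Fabp5, a fatty acid chaperone, was at -0.72 to 0.91 (median 0.38) against 8.42, 9.23 and 5.18 (log2FC -7.35 ± 0.71), and Fabp4, its adipocyte relative, at -3.62 to 0.23 (median -2.50) against 7.82, 8.83 and 3.57 (log2FC -8.94 ± 1.11). These 4 genes were lower in every microglia library than in every macrophage library, and macrophage replicate 3 was the closest to them for both chaperones. Abca1, the cholesterol exporter, went the other way, at 6.61 to 7.44 (median 6.96) against 3.02, 3.35 and 2.53 (log2FC 4.05 ± 0.23, adjusted p = 9.75e-08). Mylip, a ubiquitin ligase of lipoprotein uptake, was at 6.82 to 7.28 (median 7.15) against 2.83, 4.15 and 2.16 (log2FC 4.06 ± 0.33), and Apoc1 was higher by 4.31 ± 0.50.

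Of 26 genes of sterol and fatty acid synthesis, 9 were lower and none was higher (median log2FC -1.76), though 1 was higher without macrophage replicate 1, macrophage replicate 2 or microglia replicate 5. Srebf2, the master regulator of sterol synthesis, was at 1.44 to 3.77 (median 3.23) against 7.44, 7.74 and 8.01 (log2FC -4.78 ± 0.44, adjusted p = 4.17e-06), and Sqle, squalene epoxidase, had a log2FC of -3.55 ± 0.30.

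Glycolytic genes were 11 of 22 lower and 3 higher (median log2FC -2.20), whereas none of 31 nuclear genes of the respiratory chain was a DEG (median log2FC -0.44). Pkm, pyruvate kinase, was at 6.18 to 9.27 (median 8.42) in microglia and at 11.84, 11.50 and 13.26 in macrophages (log2FC -4.16 ± 0.63, adjusted p = 0.000196). Pfkp, a phosphofructokinase, was at 0.82 to 2.37 (median 1.41) against 6.35, 6.20 and 7.89 (log2FC -5.28 ± 0.46), and Hk3, the hexokinase of myeloid cells, had a log2FC of -3.56 ± 0.50. Pdk1, which diverts pyruvate from mitochondria, was higher in microglia, at 4.59 to 6.59 (median 5.09) against 2.37, 2.36 and 3.34 (log2FC 2.58 ± 0.39). The sugar carriers differed from each other. Slc2a5 was the DEG described among the homeostatic genes, and Slc2a1, the glucose carrier GLUT1, was at 3.39 to 6.46 (median 6.03) against 6.57, 6.54 and 8.12 (log2FC -1.67 ± 0.69, adjusted p = 0.0595, or -2.25 and 0.0365 with microglia replicates 4 to 7 only). In the respiratory chain log2FCs ran from -1.43 for Ndufv1 to 1.30 for Uqcrfs1. None of 13 genes encoded in mitochondrial DNA was a DEG either (1 was higher without macrophage replicate 3, microglia replicate 1 or microglia replicate 4), and together they took 0.597% to 1.26% of CPM in microglia and 0.340% to 0.496% in macrophages.

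Genes of glutathione metabolism, the NRF2 response and iron were 16 of 24 lower and none higher (median log2FC -2.74), though 1 was higher without macrophage replicate 1 and 2 without replicate 2. Prdx1, a peroxidase, was at 7.74 to 8.39 (median 8.12) against 12.20, 12.66 and 11.64 (log2FC -4.05 ± 0.24, adjusted p = 1.09e-07). Hmox1, haem oxygenase, was at 3.43 to 4.89 (median 4.38) against 8.29, 8.06 and 10.75 (log2FC -4.73 ± 0.51), and Gstm1, a glutathione transferase, at 2.94 to 3.63 (median 3.08) against 9.14, 10.41 and 7.83 (log2FC -5.94 ± 0.43). Ftl1, the light chain of ferritin, was at 11.03 to 12.30 (median 11.39) against 15.49 to 16.40 in the 3 macrophage libraries (log2FC -4.45 ± 0.35, adjusted p = 1.01e-06), and Tfrc, the transferrin receptor, had a log2FC of -2.50 ± 0.22. These genes of iron uptake and storage were thus both lower in microglia. Slc40a1, the iron exporter ferroportin, was at 7.22 to 9.02 (median 7.92) against 5.49, 7.68 and 5.50 (log2FC 1.81 ± 0.49). Its log2FC was 2.54 (adjusted p = 0.00047) without macrophage replicate 2 and 2.06 (adjusted p = 0.0056) without microglia replicates 4 and 5 together.

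Matrix and heparan sulfate genes were 9 of 20 lower and 4 higher. Mmp12, macrophage elastase, was at 0.89 to 2.73 (median 2.06) against 12.46, 13.06 and 9.12 (log2FC -9.59 ± 0.69, adjusted p = 5.53e-07), and Ecm1, a secreted matrix protein, at 0.21 to 1.47 (median 0.85) against 7.27, 7.38 and 6.98 (log2FC -6.41 ± 0.32). Mmp2, a gelatinase, was higher in microglia, at 2.27 to 4.78 (median 3.72) against -0.62, -2.20 and -0.38 (log2FC 4.60 ± 0.58). Of the syndecans, which carry heparan sulfate, Sdc1 had at most 3 counts in every microglia library and was at least 109-fold lower in microglia. Sdc3 had a log2FC of -4.96 ± 0.34, and Hpse, the heparanase that trims heparan sulfate, one of -5.76 ± 0.74.

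**Figure D4:**
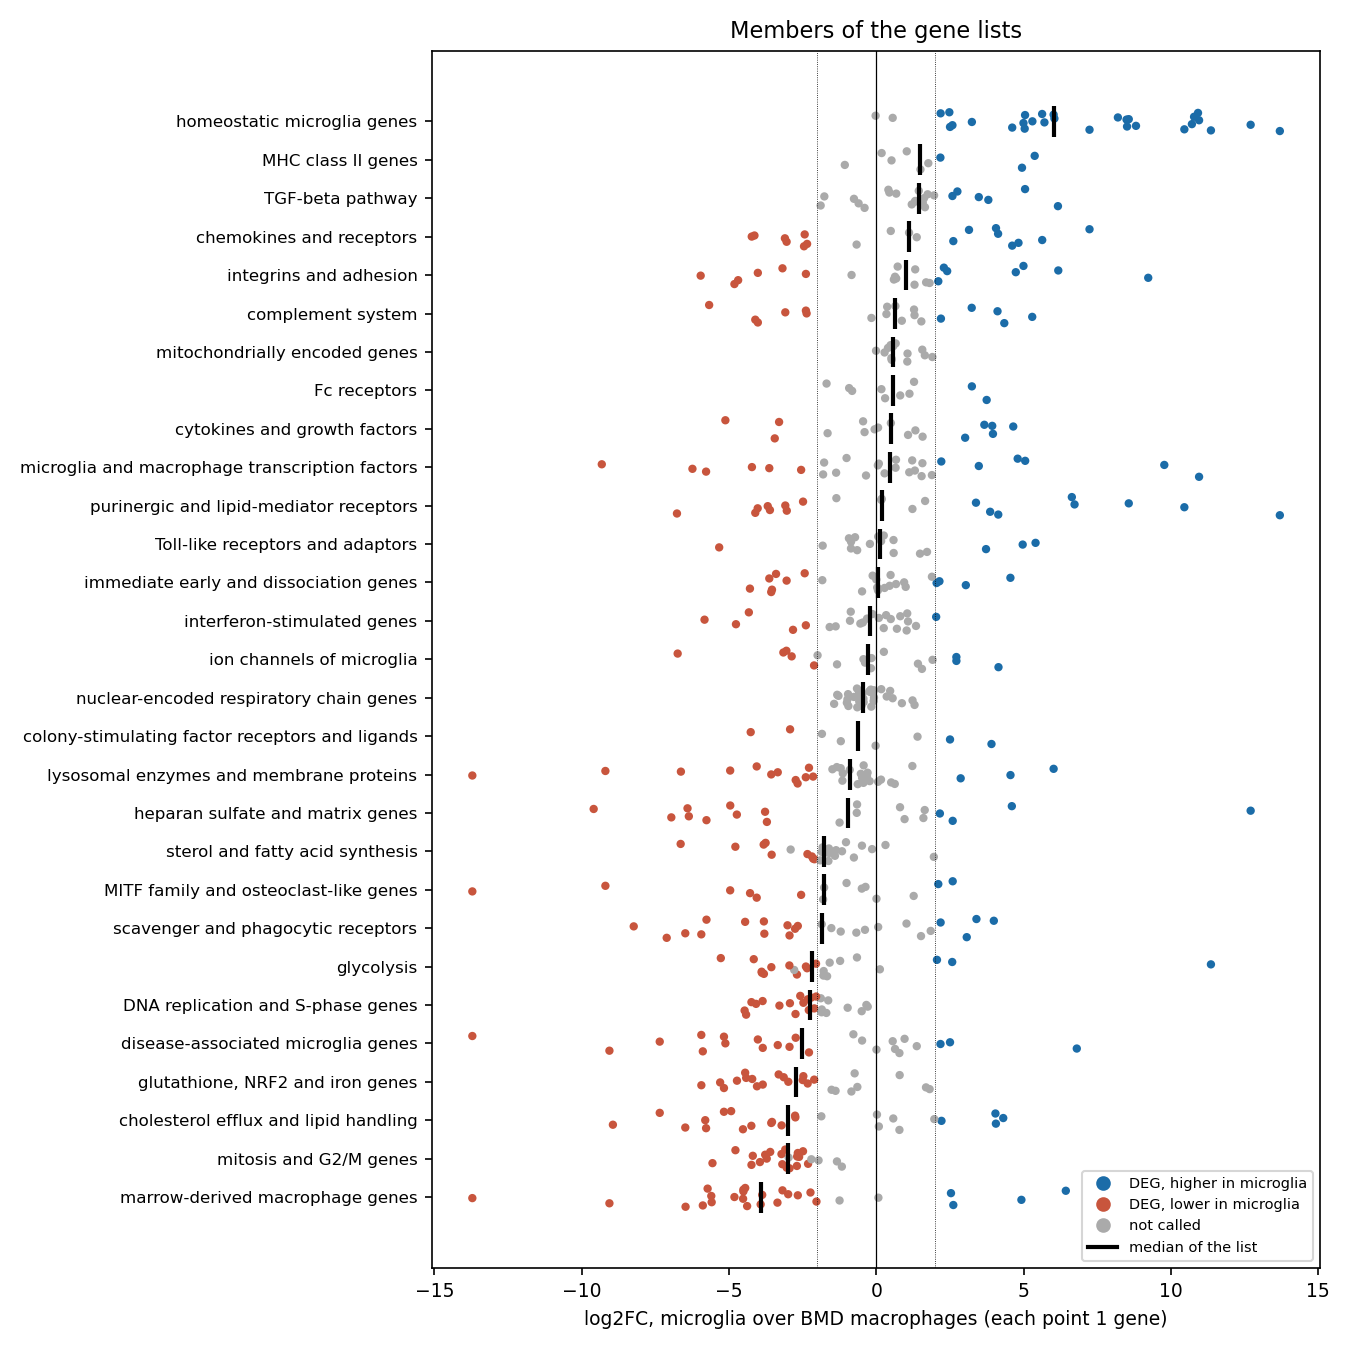
Log2FC (microglia minus BMD macrophages, x axis) of each tested member of the gene lists, with 1 row per list, 1 point per gene and a mark at the median of the list. The marker lists of other cell types, the sex-linked list and the list of Hox genes and Meis1 are not plotted. The homeostatic list lies to the right with a median of 6.03, the marrow-derived list to the left with -3.92, and the respiratory chain list near 0 with -0.44.

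Among the 15 DEGs with the largest positive log2FC whose groups do not overlap, those outside the lists were Nav3, Tmem100, Thrsp, Ighd, Ccr6, Glrp1 and Gm3411. Nav3, a neuron navigator protein of microtubules, was at 7.81 to 9.21 (median 8.53) against -2.80, -2.11 and -2.83 (log2FC 11.19 ± 0.30, adjusted p = 2.07e-10). Tmem100, a small membrane protein known from endothelium, was at 8.40 to 8.61 (median 8.52), with no counts in macrophage replicates 1 and 2. The other 5 had at most 3 counts in every macrophage library, so only lower bounds can be given. Thrsp, a lipogenesis-related nuclear protein, was at 7.05 to 8.04 (median 7.41) in microglia and at least 1456-fold higher. Ccr6, the receptor for CCL20, was at least 1001-fold higher, and Ighd, the constant region of IgD, at least 1231-fold. Glrp1 was at 6.14 to 7.10 (median 6.70) in microglia and Gm3411 at 5.99 to 7.27 (median 6.46), at least 847-fold and 801-fold higher.

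Among the 15 with the largest negative log2FC, those outside the lists were Anpep, Xdh, Myof, Npy, Cd93, Stac2, Emp1 and Capn5. Anpep, aminopeptidase N or CD13, was at -3.62 to 0.59 (median -3.62) against 9.63, 10.85 and 7.69 (log2FC -11.55 ± 1.09, adjusted p = 4.82e-06), and 4 of 7 microglia libraries had no counts. Cd93, a C-type lectin-like receptor, was at -0.32 to 0.73 (median 0.29) against 9.62, 9.94 and 10.08 (log2FC -9.63 ± 0.30, adjusted p = 4.65e-10). Xdh, which encodes xanthine oxidoreductase, had no counts in any microglia library and was at 7.51, 8.12 and 8.05 in macrophages, at least 1976-fold lower in microglia. Myof, a membrane repair protein of the ferlin family, was likewise at least 716-fold lower, Npy, neuropeptide Y, at least 660-fold and Stac2 at least 783-fold. Xdh and Myof were at even levels in the macrophages, while Npy was highest in replicate 3 and Stac2 lowest in replicate 3, at 3.81. Colec12, a scavenger collectin that marks border macrophages, was at -3.62 to 3.09 (median 0.30) in microglia and at 8.73, 8.54 and 9.88 in macrophages (log2FC -9.04 ± 1.35).

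Markers of other cells that a brain sort or a marrow culture could hold are given as sums of CPM over each list. The study stained brain cells for CD45 and CD11B, and describes a gate on leukocytes positive for both in its flow cytometry. Which other cells passed the sort was not tested. Neutrophil and granule markers were at 1582 to 6974 CPM in microglia and at 45.2 to 205 CPM in macrophages, and 10 of 14 tested members were higher DEGs (median log2FC 5.96). S100a8, an alarmin of neutrophils, was at 7.75 to 10.37 (median 9.15) against 2.58, 1.63 and 1.37 (log2FC 7.45 ± 0.52), and Ngp, a granule protein, at 8.85 to 11.22 (median 9.67) against 2.90, 2.34 and -1.97 (log2FC 8.77 ± 0.86). Haemoglobin and other erythroid markers were at 288 to 7770 CPM in microglia and at 0.923 to 6.06 CPM in macrophages, with 5 of 5 tested members higher. Lymphocyte markers were at 1106 to 1808 CPM against 17.2 to 70.1 CPM, with 6 of 7 tested members higher and 1 lower, and Ighm, the constant region of IgM, was at 9.99 to 10.70 (median 10.26) against 4.35, 1.47 and 3.82. Ighm alone made up 87.8% to 93.8% of this sum in microglia, and the 15 other members summed to 78.8 to 154 CPM against 3.16 to 67.4 CPM. Dendritic cell markers were at 1645 to 2459 CPM against 111 to 138 CPM (6 of 8 higher). Siglech, also a homeostatic microglia gene, made up 88.6% to 94.4% of the sum in microglia. The 11 other members summed to 138 to 222 CPM in microglia and to 111 to 136 CPM in macrophages.

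Border macrophage markers went the other way in sum, at 635 to 1305 CPM in microglia and at 3838 to 6355 CPM in macrophages, with 4 of 16 higher and 6 lower. Maf alone made up 55.3% to 84.5% of this sum in microglia. The 15 other members summed to 130 to 438 CPM in microglia and to 3661 to 6185 CPM in macrophages. The 6 lower members included Mrc1, Ms4a7 and Dab2, which cultured macrophages express themselves, and the 4 higher ones were Lyve1, Cd209f, Cd209b and Cp. The call of Cd209f was lost (adjusted p = 0.0526) with microglia replicates 4 to 7 only, where its log2FC was 5.07 against 5.51 in the full comparison. Lyve1, a hyaluronan receptor, was at -1.59 to 3.68 (median 2.32) in microglia with no counts in macrophages. Markers of neural cells were low: neuron markers summed to 2.39 to 13.4 CPM in microglia and to 0.253 to 0.682 CPM in macrophages (2 of 3 tested higher, 1 without macrophage replicate 3). Oligodendrocyte markers summed to 52.6 to 195 CPM against 166 to 212 CPM (2 of 5 higher, none lower) and astrocyte markers to 229 to 371 CPM against 159 to 340 CPM (3 of 10 higher, 3 lower). Slc1a3, a glutamate carrier that is also known in microglia, was at 7.37 to 8.44 (median 8.17) against 0.034, 0.81 and -0.58 (log2FC 7.95 ± 0.30). Without it, astrocyte markers summed to 24.0 to 64.0 CPM in microglia against 159 to 339 CPM in macrophages, and the astrocyte water channel Aqp4 had no counts in any of the 10 libraries. Endothelial and mural markers summed to 189 to 1380 CPM against 156 to 685 CPM (1 of 5 higher, none without macrophage replicate 1 and 2 without macrophage replicate 3 or microglia replicate 4), or to 59.0 to 161 CPM against 106 to 312 CPM without Bsg, which many cells express, and fibroblast markers to 24.3 to 53.5 CPM against 1.51 to 16.1 CPM (3 of 5 higher). The part of these cells in the other results was not tested.

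**Figure D5:**
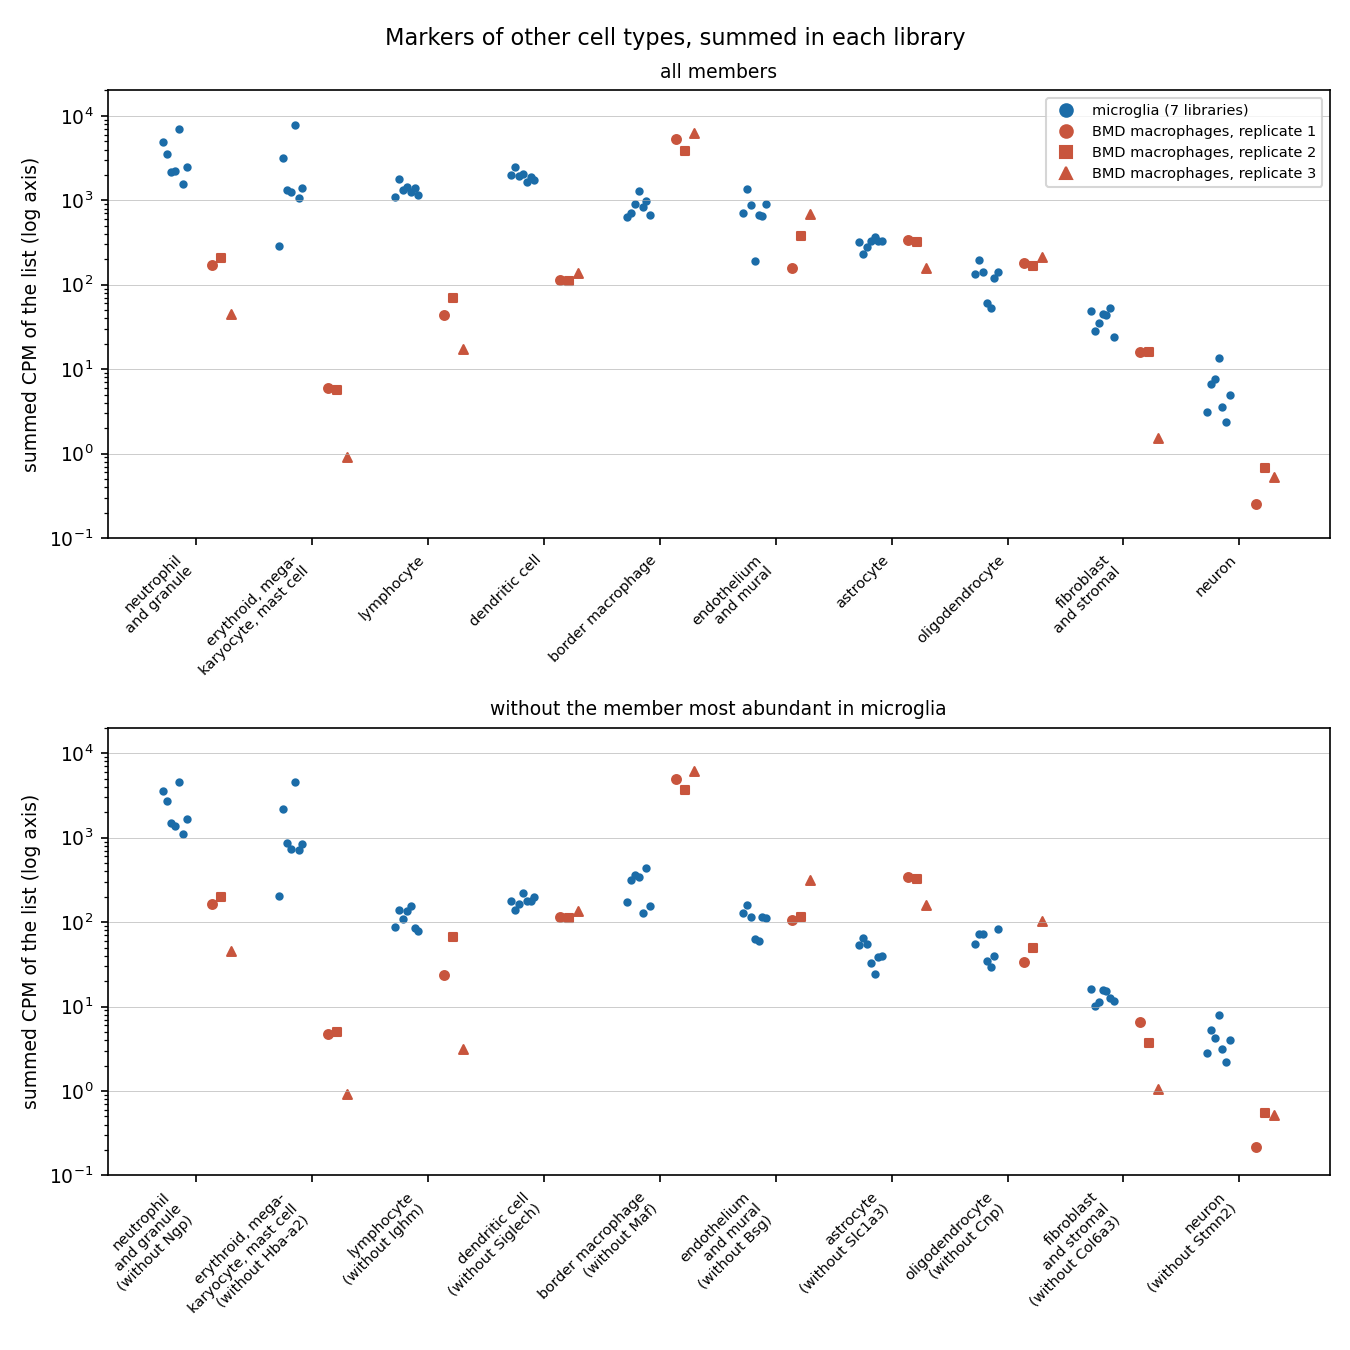
Summed CPM (log axis) of marker lists of other cell types in each of the 7 microglia and 3 BMD macrophage libraries, with 1 point per library, over all members (upper panel) and without the member most abundant in microglia (lower panel, gene left out under each list). Neutrophil, erythroid and lymphocyte sums are higher in all microglia libraries than in all macrophage libraries in both panels, and without Siglech the dendritic cell sums come close to each other (138 to 222 CPM against 111 to 136 CPM).

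Y-linked genes split the microglia and are given as levels only. Ddx3y was at 7.48, 6.23, 7.28, 0.33, -0.16, -0.43 and 0.49 in replicates 1 to 7 and at -1.22, -1.91 and -2.88 in macrophages. Replicates 1 to 3 were thus high, and replicates 4 to 7 and all macrophages were low. Uty was at 5.42, 4.71, 5.22, 2.67, 2.12, 1.85 and 2.17 in the same order and at -0.84, -0.032 and -0.99 in macrophages. The comparison was therefore repeated with microglia replicates 4 to 7 only, which gave 3398 DEGs in place of 3112.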

How the data were processed

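RNA was measured in 10 libraries, 7 of microglia and 3 of BMD macrophages, grouped by their labels. Per the paper, the authors trimmed reads with fastp, assigned them with Kallisto (version 0.46.0 in the submitters' processing notes) to the mouse transcriptome of GRCm39, summed them to genes with tximport and scaled them by TMM in edgeR. The authors deposited these values as log2 CPM, offset by a prior count, and counts were not analysed here. CPM were recovered with an assumed prior count of 2. Between 14.9% and 18.8% of genes in the 10 libraries gave near-whole counts (within 0.05), so reads were not recovered and no count test was run. Over all libraries of the normalization set the range was 9.07% to 18.8%. Depth was estimated from the smallest step between values, and floors of 3 counts (0.122 CPM at the mean effective library size of 24.5 M counts) cover counting error only. All libraries compared belong to one normalization set of 27. The table has 29957 rows; 1 row without a name, with 0.00623% to 0.0584% of a library, was left out, and 0 columns lacked a sample.

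A gene was tested if 3 or more of the 10 libraries had it above 1 CPM. Tests were run with limma 3.58.1 in R 4.3.3 (group means, eBayes with trend, two-sided, Benjamini-Hochberg adjustment over all genes tested). Confidence intervals are at 95% and unadjusted. Where a group was at or below the floor of 0.122 CPM in every library, a fold is given as a bound of the other group's mean CPM against that floor. The same floor was used for all libraries, whatever their depth. Fits without a library kept the genes of the full comparison. The 41 lists hold 846 members, of which 843 are in the table, and they are described by counts and medians only. The libraries compared and the lists were chosen with earlier results of these data known. Genes named are members of the lists and the 15 DEGs of highest and the 15 of lowest log2FC, counting only genes whose groups do not overlap. Promoters are RefSeq sequences (GRCm38.p6) of the 250 bases before each start, matched by symbol for 8892 of the 12079 tested genes; a gene counts as holding a motif if any of its starts does, on either strand. Tables and figures were made with Python 3.11.15, numpy 2.4.6, pandas 2.3.3 and matplotlib 3.10.9. Alternatives are the replicate block, omission of each library, filters, pseudocount, scaling, weights, groups fitted and thresholds. Some members of the lists are not reported here by name.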

Additional observations from a re-analysis of the deposited data

Results flagged for a closer look

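Of 210 sets of 7 microglia values examined (named genes, marker sums and distances), 19 had 1 library far from the others by Dixon's test at 95%; chance flags about 1 in 20 groups. Microglia replicate 7 was the highest library for Jun (6.16), Pdk1 (6.59), Sdc1 (-2.97), Spi1 (6.81) and Uqcrfs1 (6.52), all in log2 CPM. Sdc1 had at most 3 counts in every microglia library, so its flag is within counting error. Replicate 5 was the highest for C3ar1 (7.62), Cybb (8.23) and Vim (4.12), and the lowest for Itga5 (-0.30) and Pmepa1 (5.42). Replicate 2 was the highest for Adora3 (8.35) and Ccr1 (9.22) and the lowest for Mitf (3.78) and Sall3 (5.80). Single values stood apart for Capn5 (replicate 1, highest, -0.65), Bsg (replicate 4, lowest, 6.97), Itgax (replicate 4, lowest, 0.49) and Oas2 (replicate 6, highest, 0.48). The endothelial and mural marker sum was lowest in 1 microglia library, at 7.56 on the log2 scale of CPM.

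Of 2 further libraries labelled as unmanipulated microglia and left out of the comparison, replicate 8 had neuron markers that summed to 191.7 CPM, against at most 13.4 CPM in the 7 microglia libraries compared. The cause was not tested.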

How the results depend on the processing

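No DEG among the 197 genes named changed sign under any of the 24 alternatives run in which it had a value; 13 of the genes had none at a mean CPM above 5. Of the named genes that were not DEGs, 9 changed sign under at least 1 alternative. The 3112 DEGs became 5623 (2879 higher, 2744 lower) at a log2FC limit of 1, and 1180 (640 higher, 540 lower) when tested against a log2FC of 2. Higher DEGs fell to 922 when a mean CPM above 5 was asked for and to 897 with a pseudocount of 1, with 1174 and 1286 lower. Without a filter on low values, 3467 of 20563 genes were DEGs. Median centring shifted the median log2FC to 0.18 and gave 1773 higher and 1402 lower DEGs, and quantile normalization 1320 and 1512. Leaving out 1 library gave 2855 to 3284 DEGs, the fewest without macrophage replicate 3. The ratio of the median distance between groups to that within microglia was 5.62 with 1 minus Spearman, 2.88 at a mean CPM above 5 and between 2.15 and 2.78 when a microglia library was left out, with a main value of 2.51. The causes were not tested.

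Replicate numbers did not pair the libraries: deviations of same-numbered libraries correlated at r of -0.0075, -0.092 and 0.097. With the replicate block, 2667 genes were DEGs (1365 higher, 1302 lower), and 193 of the 197 named genes kept their side of the limits.

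Chosen after the data were seen, a fit with microglia replicates 4 to 7 only gave 3398 DEGs, and one without microglia replicates 4 and 5 together gave 2847; 1459 higher and 1474 lower DEGs of the former, and 1400 and 1324 of the latter, had the same call in the full comparison. Differences below a log2FC of 2 were not called whatever their p, and genes near 1 CPM are limited by counting error.

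The 9 genes that changed sign were not DEGs with either sign. The log2FC of Csf1r (-0.022) was 0.51 with the replicate block, 0.16 with median centring, 0.046 with microglia replicates 1 to 9, 0.30 with a weight for each library and 0.42 without microglia replicates 4 and 5 together. That of Egr1 (0.059) was -0.10 with the block, -0.16 with a pseudocount of 1, -0.44 with quantile normalization and -1.09 with weights. That of C3 (0.35) was -0.11 with the block and -0.30 with microglia replicates 1 to 9, that of Tgfb1 (-0.40) 0.077 with the latter and 0.54 with weights, that of Jun (0.032) -0.42 with the block, that of Isg15 (-0.13) 0.052 with median centring and that of P2ry6 (0.19) -0.21 with microglia replicates 4 to 7 only. When 1 library was left out, log2FCs ran from -0.31 to 0.21 for Csf1r, from -1.18 to 0.88 for Egr1, from -0.38 to 0.30 for Jun, from -0.42 to 0.23 for Isg15, from -0.43 to 1.70 for Apoe and from -1.46 to 0.18 for Tyms.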
